A study of Homo sapiens with 6 samples.

Results

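The genes described here are 10 transcription factors and structural proteins known for the epithelial-mesenchymal transition, SNAI1, SNAI2, TWIST1, TWIST2, ZEB1, ZEB2, PRRX1, VIM, CDH2 and CDH11. They were chosen by name, as the rows of the count tables that carry one of these symbols, and each symbol had 1 entry. They are 10 of the 24462 different symbols in the tables. Levels are given as CPM, the counts of a gene divided by all counts of its library and scaled to a common total.

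The RNA came from 1CT, an immortalized human colonic epithelial cell (HCEC) line labelled wild type, and from 1CT-A, the same line labelled APC KD, in which wild type APC was depleted. APC is a tumour suppressor that holds down β-catenin. Both cell lines were untreated and grew in the same medium with 2% serum, 20 ng/ml EGF and 5 nM selenite, and 3 libraries of each were made from 500 ng of total RNA with QuantSeq, a kit that reads the 3′ ends of transcripts. Each condition is thus 1 cell line. The labels do not say whether the 3 libraries came from separate cultures, so p-values measure the spread between these libraries, which may be technical.

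In the epithelial-mesenchymal transition, epithelial cells lose junctions and polarity and take on the shape and motility of mesenchymal cells. The SNAIL zinc finger proteins (SNAI1, SNAI2), the TWIST basic helix-loop-helix proteins and the ZEB zinc finger homeobox proteins bind E-box letters in DNA and repress epithelial genes such as CDH1, while PRRX1 is a homeobox factor of embryonic mesenchyme. Vimentin (VIM), N-cadherin (CDH2) and cadherin 11 (CDH11) are proteins that mesenchymal cells make. In colon tumours these genes are read both in carcinoma cells that undergo the transition and in the surrounding fibroblasts.

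All 10 genes passed the filter on low counts, and 8 of them differed between 1CT-A and 1CT at an adjusted p under 0.05 (edgeR's quasi-likelihood test, adjusted over all 12514 genes tested). SNAI2, TWIST1, TWIST2 and ZEB1 were higher in 1CT-A, while SNAI1, PRRX1, VIM and CDH11 were lower. The call of VIM was narrow, since it was lost in 8 of 14 alternative settings. The largest differences were a 3.65-fold higher level of TWIST1 and a 7.10-fold lower level of PRRX1 in 1CT-A. Differences between the cell lines were common among all genes. Of the genes tested, 51.0% were called, 25.0% as higher and 26.0% as lower in 1CT-A, so 8 of 10 is set against a background of about every other gene. The CPM values of the 2 cell lines did not overlap for 8 of the 10 genes, against 59.7% of all genes tested. The median log2 difference of the 10 genes was 0.23, beside -0.01 over all genes tested. PRRX1 passed the filter through 1CT, where it was higher, so its place in these counts and in the median is a description.

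**Figure D1:**
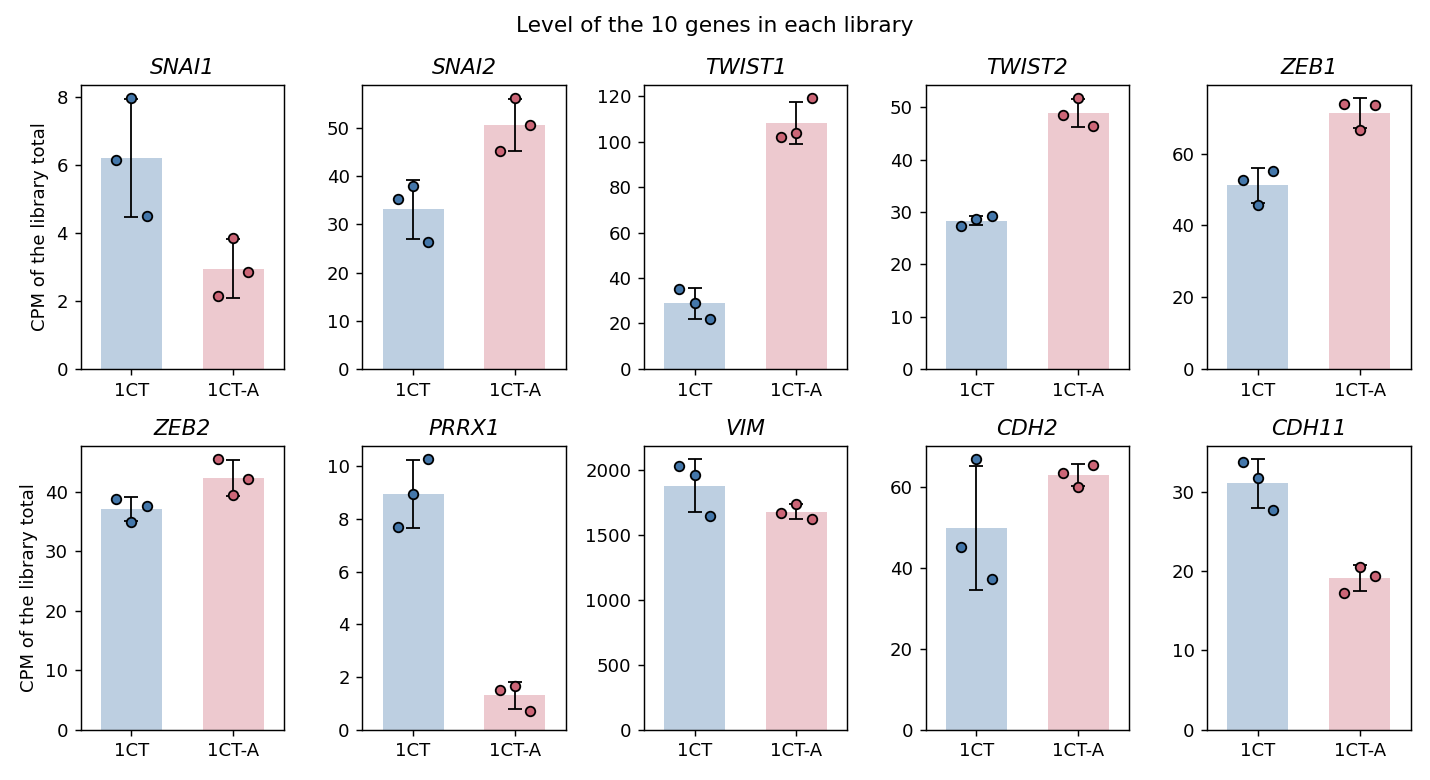
Level of each of the 10 genes in CPM of the library total, in a panel of its own with a linear axis from 0, with 1 point per library, bars at the mean of 3 libraries of 1CT or 1CT-A and SD as error bars. The points of TWIST1 and PRRX1 lie farthest apart, with means of 28.8 against 108.3 CPM and 8.97 against 1.30 CPM, while those of VIM and CDH2 overlap.

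The plot of levels by library shows that the genes did not move as a group. Within each of the SNAIL and cadherin pairs, 1 gene had a lower level in 1CT-A than in 1CT and the other did not.

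SNAI1 (Snail), a short-lived repressor of CDH1, gave few counts. The 1CT libraries held 52, 66 and 35 counts (6.15, 7.97 and 4.49 CPM), the 1CT-A libraries 24, 44 and 36 (2.15, 3.86 and 2.86 CPM). Every 1CT-A library lay below every 1CT library, although the highest and lowest of them were only 3.86 and 4.49 CPM. SNAI1 fell by 1.11 on the log2 scale (SE 0.27, edgeR adjusted p = 0.00358), 2.16-fold lower in 1CT-A.

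SNAI2 (Slug), its close relative and likewise a repressor of CDH1, moved the other way. The counts were 298, 315 and 205 in 1CT (35.3, 38.0 and 26.3 CPM) and 506, 640 and 639 in 1CT-A (45.3, 56.2 and 50.7 CPM). The third 1CT library was the lowest and the groups did not overlap. SNAI2 rose by 0.57 on the log2 scale (SE 0.12, edgeR adjusted p = 0.00175), 1.49-fold. Of the counts of both genes, SNAI2 took 84.4 ± 1.51% (SD, n = 3) in 1CT and 94.6 ± 0.956% in 1CT-A.

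TWIST1, a factor of neural crest and limb mesenchyme, showed the largest rise of the 10 genes. It had 299, 242 and 170 counts in 1CT (35.4, 29.2 and 21.8 CPM) and 1138, 1184 and 1500 counts in 1CT-A (102, 103.9 and 119 CPM). Even the lowest 1CT-A library was far above the highest 1CT library. The log2 difference was 1.87 (SE 0.13, 95% interval 1.58 to 2.16, edgeR adjusted p = 1.68e-07), and 0.959% of the genes tested had a higher one.

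TWIST2, a second TWIST protein expressed in dermal and other mesenchyme, had the most even libraries among the factors. It gave 231, 237 and 227 counts in 1CT (27.3, 28.6 and 29.1 CPM) and 542, 589 and 584 counts in 1CT-A (48.6, 51.7 and 46.3 CPM). All 1CT-A libraries lay above all 1CT libraries. TWIST2 rose by 0.75 on the log2 scale (SE 0.09, edgeR adjusted p = 1.59e-05). TWIST1 made up 56.4%, 50.5% and 42.8% of the counts of both TWIST genes of 1CT, and 67.7%, 66.8% and 72.0% in the 1CT-A libraries.

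ZEB1 and ZEB2 repress CDH1 and other genes of epithelial polarity. ZEB1 had 444, 378 and 430 counts in 1CT (52.5, 45.6 and 55.2 CPM) and 824, 759 and 925 counts in 1CT-A (73.9, 66.6 and 73.4 CPM), without overlap. It rose by 0.44 on the log2 scale (SE 0.09, edgeR adjusted p = 0.00164), a difference of 1.36-fold. ZEB2 had 327, 289 and 293 counts in 1CT (38.7, 34.9 and 37.6 CPM) and 507, 449 and 530 counts in 1CT-A (45.4, 39.4 and 42.1 CPM). The ZEB2 libraries did not overlap either, but the gap between 38.7 and 39.4 CPM was narrow. Its log2 difference was 0.15 (95% interval -0.05 to 0.35) with an edgeR adjusted p of 0.193, which does not pass the threshold and leaves a rise of up to 0.35 within the interval.

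PRRX1 gave the fewest counts of the 10 genes in 1CT-A. It had 65, 74 and 80 counts in 1CT (7.69, 8.93 and 10.3 CPM) and 17, 19 and 9 counts in 1CT-A (1.52, 1.67 and 0.714 CPM). All 1CT-A libraries were above the level that 3 counts give there, 0.238 to 0.269 CPM, so the gene was still detected. PRRX1 fell by 2.83 on the log2 scale (SE 0.28, 95% interval -3.42 to -2.23, edgeR adjusted p = 2.77e-06), and 2.34% of the genes tested had a lower value. It passed the filter through 1CT, where it was higher, so these values are a description. As these are bulk samples, fewer cells with a transcript and less of it per cell cannot be told apart here or for any other gene.

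**Figure D2:**
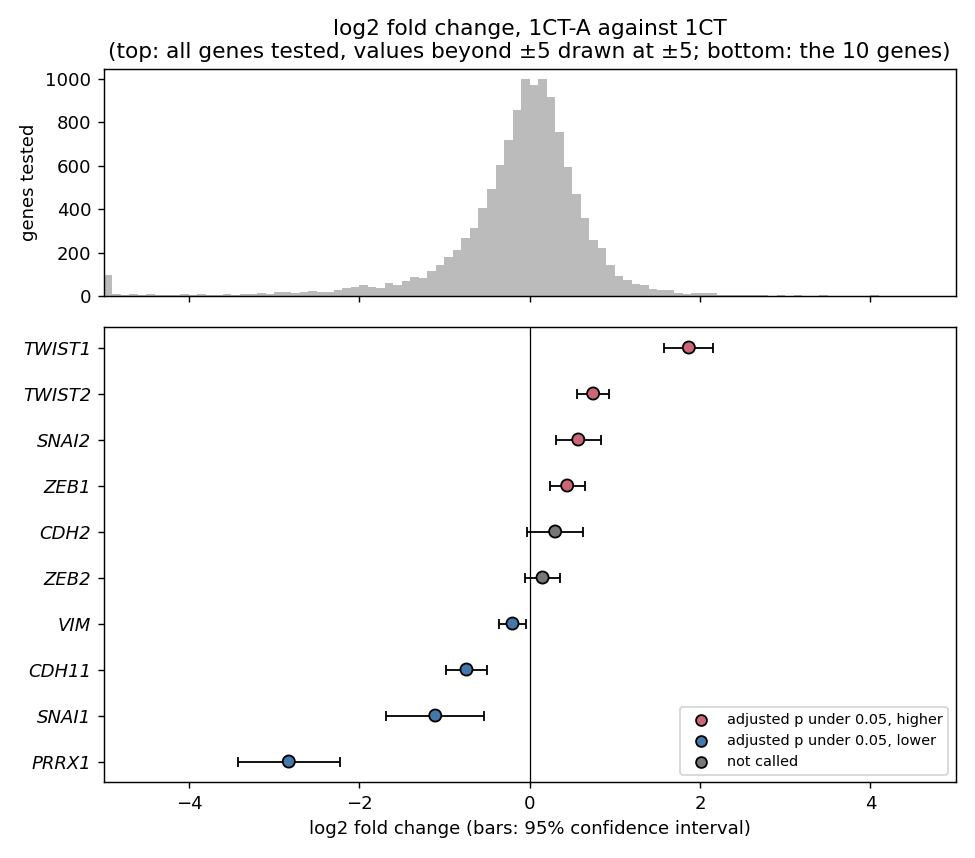
Log2 difference between 1CT-A and 1CT (edgeR) as a histogram of all genes tested, with values beyond 5 drawn at 5, above the 10 genes with 95% intervals as bars. TWIST1 at 1.87 and PRRX1 at -2.83 lie farthest from 0, and the intervals of ZEB2 (-0.05 to 0.35) and CDH2 (-0.03 to 0.63) include 0.

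The plot of differences with their intervals separates the genes that passed the test from ZEB2 and CDH2, and shows VIM close to 0 among those that passed.

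VIM, the intermediate filament protein of mesenchymal cells, gave by far the most counts of the 10 genes in every library. The counts were 17156, 16235 and 12813 in 1CT (2030, 1960 and 1645 CPM) and 18598, 19824 and 20489 in 1CT-A (1667, 1740 and 1626 CPM). The third 1CT library lay within the range of the 1CT-A libraries, so the groups overlapped. The log2 difference was -0.20 (95% interval -0.36 to -0.04, edgeR adjusted p = 0.0386), and an exact permutation test of the log2 CPM values gave p = 0.3. The same permutation test gave p = 0.4 for CDH2 and p = 0.1, its smallest possible value, for each other gene of the 10. Over the 14 alternatives the adjusted p of VIM ran from 0.000316 to 0.163.

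CDH2, the N-cadherin of neurons and mesenchyme, varied most among the 1CT libraries. It had 382, 554 and 291 counts in 1CT (45.2, 66.9 and 37.4 CPM) and 709, 683 and 825 counts in 1CT-A (63.5, 59.9 and 65.5 CPM). The second 1CT library was higher than every 1CT-A library. The log2 difference was 0.30 (95% interval -0.03 to 0.63, edgeR adjusted p = 0.119), and without the second 1CT library it was 0.57 with an adjusted p of 0.000686.

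CDH11, a cadherin of fibroblasts and bone-forming cells, went down. It had 285, 263 and 216 counts in 1CT (33.7, 31.8 and 27.7 CPM) and 193, 234 and 245 counts in 1CT-A (17.3, 20.5 and 19.4 CPM). The groups did not overlap. CDH11 fell by 0.74 on the log2 scale (SE 0.11, edgeR adjusted p = 9.77e-05), 1.67-fold lower in 1CT-A. Of the counts of CDH2 and CDH11 together, CDH2 took 60.8 ± 6.05% in 1CT and 76.7 ± 2.09% in 1CT-A.

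**Figure D3:**
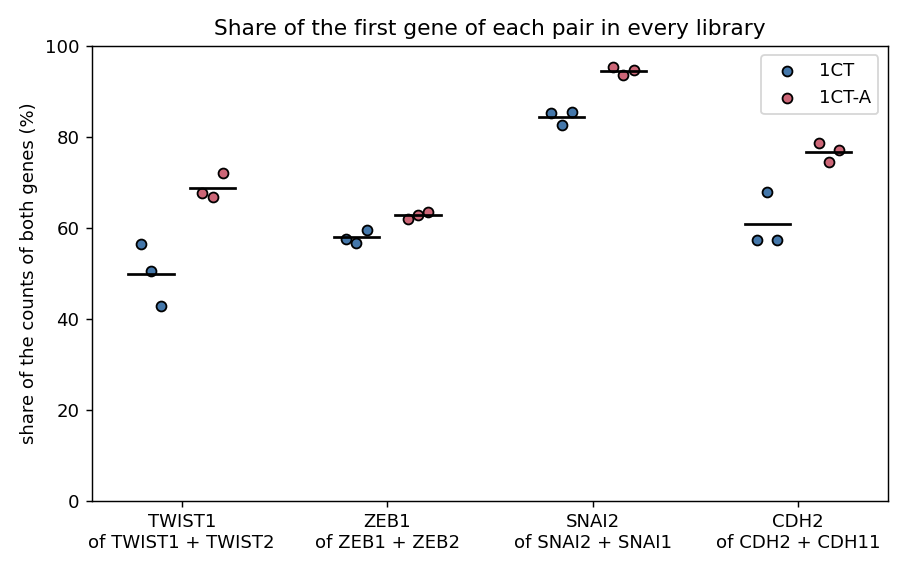
Share of the first gene in the counts of 4 gene pairs, in percent, with 1 point per library and a line at the mean of 3 libraries per cell line. In each pair all 1CT-A points lie above all 1CT points, from 57.9 ± 1.43% against 62.8 ± 0.834% for ZEB1 of ZEB1 and ZEB2 to 49.9 ± 6.82% against 68.8 ± 2.77% for TWIST1 of both TWIST genes.

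The plot of shares sets related genes against each other within a library, so that library size does not enter. The pairs were chosen after the values were seen. In each pair the gene with the higher log2 difference comes first, so the common direction follows from this order and is no result. The log2 ratio of the pair was higher in 1CT-A by 1.70 for SNAI2 to SNAI1, 1.15 for TWIST1 to TWIST2, 1.08 for CDH2 to CDH11 and 0.29 for ZEB1 to ZEB2. Each difference gave p = 0.1 in a two-sided exact permutation test, the smallest value that 3 libraries against 3 allow, and 0.1 after Benjamini-Hochberg adjustment over the 4 pairs. The shares compare cell lines within a pair and are no measure of which gene has more transcripts, because counting at the 3′ end depends on the gene.

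Added up, the 7 transcription factors gave 203, 193 and 185 CPM in the 1CT libraries and 319, 323 and 335 CPM in the 1CT-A libraries, 194 ± 9.08 against 326 ± 8.37 CPM without overlap. The share of TWIST1 in this sum went from 14.8 ± 2.82% in 1CT to 33.2 ± 2.00% in 1CT-A. Those of ZEB1 (26.4 ± 3.16% against 21.9 ± 1.28%), ZEB2 (19.2 ± 1.15% against 13.0 ± 1.10%), SNAI1 (3.19 ± 0.858% against 0.907 ± 0.264%) and PRRX1 (4.66 ± 0.884% against 0.402 ± 0.165%) were lower in every 1CT-A library. A share depends on the whole sum, and that of ZEB1 was lower although its level rose. The shares of SNAI2 (17.1 ± 2.73% against 15.6 ± 1.62%) and TWIST2 (14.7 ± 1.16% against 15.0 ± 1.10%) overlapped, with exact permutation p = 0.5 and p = 0.7.

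Replicates of 1 cell line differed by more than counting alone gives. The coefficient of variation of the 10 genes had a median of 12.7% in 1CT (range 3.29% to 30.7%) and 7.88% in 1CT-A (range 3.45% to 39.5%). It was above the value expected from counting for 8 genes in 1CT and for all 10 in 1CT-A. The third 1CT library had the lowest level of 6 of the 10 genes, among them TWIST1, SNAI2 and VIM.

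The 1CT libraries totalled 7788679 to 8452258 counts and the 1CT-A libraries 11158108 to 12602988, a ratio of 1.43 between the means, and 3 counts correspond to 0.355 to 0.385 CPM in 1CT. Limits of this kind cover counting error only. APC, the targeted gene, was at 46.6 ± 2.75 CPM in 1CT and 31.9 ± 2.21 CPM in 1CT-A and fell by 0.58 on the log2 scale (edgeR adjusted p = 0.000176). The cells are labelled colonic epithelial, but 11 of 15 colon epithelial markers had at most 3 counts in every library. EPCAM, VIL1, CDX1, MUC2, CA2, GPA33 and FABP1 had 0 counts, which allows up to 0.238 CPM in the deepest and 0.385 CPM in the shallowest library, and the list summed to 13.5 to 17.4 CPM in the 1CT libraries, against 3.23 to 7.28 CPM for 1CT-A. The 11 fibroblast markers, by contrast, each had over 3 counts in at least 1 library and summed to 4816 to 6474 CPM in the 1CT libraries, against 4467 to 4594 CPM for 1CT-A. Of 7 endothelial markers 5 had at most 3 counts in every library, with CDH5 at 0, and the sums were 15.5 to 22.6 CPM for 1CT against 2.96 to 6.14 CPM for 1CT-A. Of 8 leukocyte markers 5 had at most 3 counts, with PTPRC, CD3E and CD3D at 0, and the sums were 12.7 to 15.0 CPM against 9.28 to 10.5 CPM. How far other cells take part in the values of the 10 genes was not tested.

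**Figure D4:**
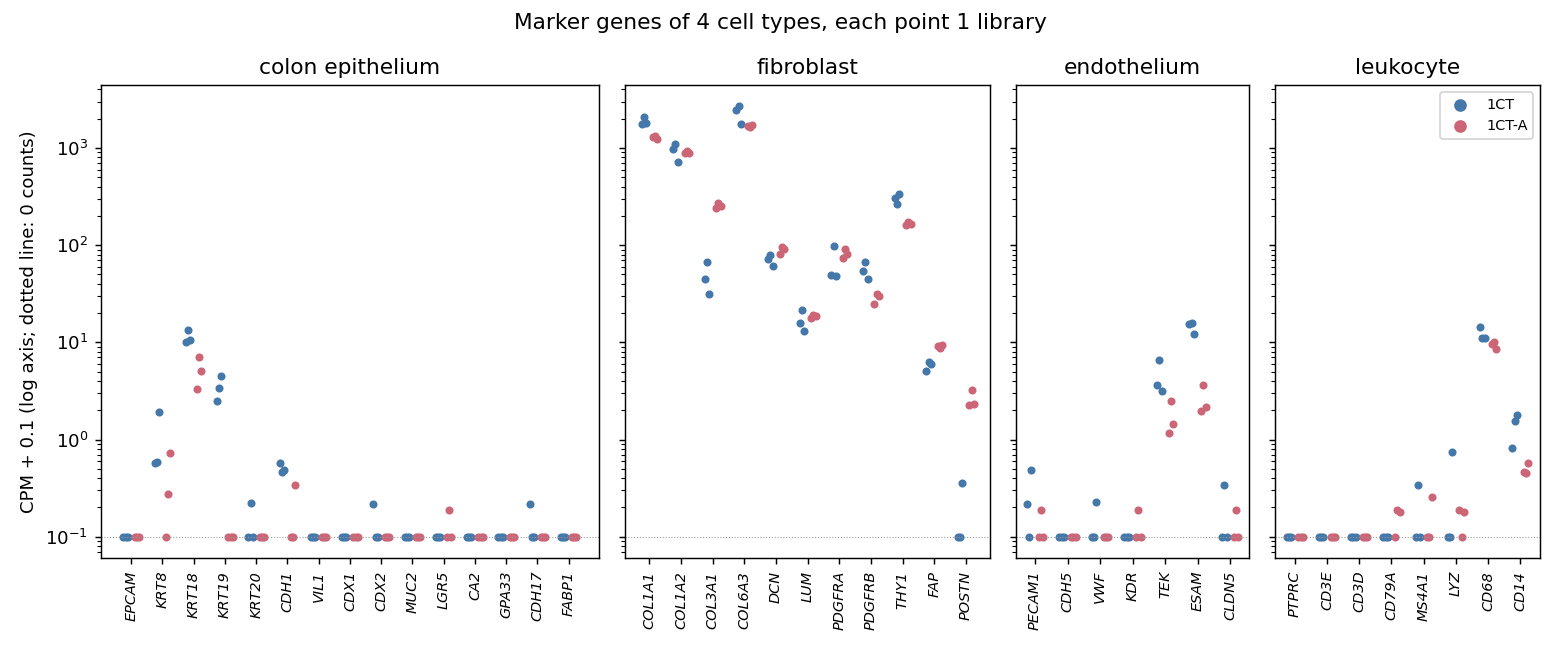
Level of each marker gene of 4 cell types as CPM + 0.1 on a log axis, with 1 point per library for 1CT and 1CT-A and a dotted line at 0 counts. The fibroblast markers, which sum to 4467 to 6474 CPM, lie mostly above the dotted line, and most colon epithelial markers, which sum to 3.23 to 17.4 CPM, lie on it or close to it.

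The plot of marker genes shows how far the cells of both lines stood from the markers of their labelled tissue, whether APC was depleted or not. The 10 genes were thus measured in cells that gave counts for mesenchymal genes in 1CT already.

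Epithelial genes, the targets that these factors are known to repress, were mostly near 0 in both lines. CDH1 (E-cadherin), the classical target of SNAI1, SNAI2 and the ZEB factors, had 4, 3 and 3 counts in 1CT and 0, 0 and 3 in 1CT-A, and EPCAM had 0 in every library. Of 34 epithelial genes only 11 passed the filter, 8 of them lower in 1CT-A, 0 higher and 3 not called, with a median log2 difference of -1.19. Among all genes tested, 25.0% were higher and 26.0% lower. A gene with counts in 1CT alone passes the filter through 1CT and had to differ, so the count and the median are a description. KRT7, a keratin of simple epithelia, was at 23.5 ± 2.97 CPM in 1CT and 0.743 ± 0.193 CPM in 1CT-A. It passed the filter through 1CT, with 208, 167 and 201 counts there against 7, 11 and 8 in 1CT-A. KRT7 fell by 5.01 on the log2 scale (edgeR adjusted p = 1.74e-09), which is likewise a description. CLDN7, a claudin of tight junctions, was at 26.6 ± 2.04 and 20.6 ± 3.63 CPM and fell by 0.40 (adjusted p = 0.0225), with libraries that overlapped. KRT19, picked after its values were seen, had 20, 27 and 34 counts in 1CT and 0 in all 1CT-A libraries, at least 13.0-fold lower against a floor of 3 counts per library, and the median of the list is the same with KRT19 at that bound. With at least 10 counts asked of every library, 3 epithelial genes were called.

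E-box letters known for SNAIL and ZEB proteins were looked for in the 250 bases before the starts that RefSeq lists on GRCh38.p14. Other E-box letters, which TWIST proteins can bind, were not searched. The E-box CACCTG, or CAGGTG on the other strand, was found in 6143 of 35116 such windows (17.5%). The TCF letters ATCAAAG, or CTTTGAT on the other strand, which mark binding of the partners of β-catenin, were found in 2.26%. Of the 10 genes, 6 had an entry in the promoter table (TWIST2, ZEB1, ZEB2, PRRX1, VIM and CDH2). Only ZEB1 held an E-box, at 2 of its 7 starts, and none of the 6 held the TCF letters. Of the 34 epithelial genes, 17 had an entry and 10 of these held an E-box at some start (58.8%), against 20.6% of all 27305 genes in the table. A share by gene grows with the number of starts. By window, 11 of 25 held an E-box (44%), against 17.5% of all windows. CDH1, EPCAM, KRT7 and KRT19 were among the genes without an entry, so the comparison does not cover them. The windows of ZEB1 and TJP1 are shown with the E-box in capitals, 5′ to 3′, both outside annotated untranslated regions. The ZEB1 window is that of the start farthest upstream (chr10:31318167-31318416, plus strand), the only window of the 10 genes that held an E-box and no untranslated bases. The TJP1 window (chr15:29969050-29969299, minus strand) belongs to a tight junction scaffold among the epithelial genes and was chosen for its E-box.
ZEB1: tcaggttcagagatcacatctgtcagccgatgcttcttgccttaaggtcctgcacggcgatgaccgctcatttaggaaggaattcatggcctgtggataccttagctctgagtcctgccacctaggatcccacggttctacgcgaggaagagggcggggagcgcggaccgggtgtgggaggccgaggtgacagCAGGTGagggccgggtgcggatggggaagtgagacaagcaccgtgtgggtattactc
TJP1: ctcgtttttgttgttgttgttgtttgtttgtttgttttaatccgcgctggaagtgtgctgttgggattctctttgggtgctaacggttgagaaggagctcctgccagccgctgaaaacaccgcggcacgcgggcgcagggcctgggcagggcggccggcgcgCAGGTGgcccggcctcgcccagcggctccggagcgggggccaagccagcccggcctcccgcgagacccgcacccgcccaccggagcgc
In ZEB1 the E-box begins 57 bases before the start and in TJP1 88 bases before it. ZEB1 rose in 1CT-A, as given above, while TJP1 was at 35.4 ± 5.67 CPM in 1CT and 34.2 ± 0.897 CPM in 1CT-A, with a log2 difference of -0.09 (edgeR adjusted p = 0.518). A match of letters is no binding site, and none of these libraries measured binding.

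The 19 related factors are E proteins that pair with TWIST, ID proteins that hold E proteins back and other factors of the transition. Of these, 14 were tested, and 7 were higher and 6 lower in 1CT-A, beside 25.0% higher and 26.0% lower among all genes tested. The median log2 difference of the 14 was 0.21. RUNX2, the factor of bone formation, rose by 1.77 (5.62 against 19.9 CPM), TBX2 by 1.60 (32.5 against 101 CPM) and TCF12, an E protein, by 1.43 (11.9 against 33.2 CPM). HMGA2, a chromatin protein known to act upstream of SNAI1 and TWIST1, fell by 0.98 (123.2 against 64.1 CPM), and ID3 (-0.46) and ID2 (-0.40) fell too. The next genes were picked after their values were seen. ID1 went the other way from ID2 and ID3 and rose by 0.31 (399.9 against 507.7 CPM, edgeR adjusted p = 0.0142). The E proteins TCF3 and TCF4 rose by 0.64 and 0.53. PRRX2, the closest relative of PRRX1, fell by 1.25 (10.7 against 4.64 CPM), and the forkhead factors FOXC1 (-1.77) and FOXC2 (-1.99) fell further. SNAI3, the remaining SNAIL gene, had at most 2 counts in any library.

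Repressor complexes that SNAIL, TWIST and ZEB proteins recruit were tested for all 20 of their listed members. Of these, 12 were higher, 4 lower and 4 not called, beside 25.0% higher and 26.0% lower among all genes tested. The median log2 difference of the 20 was 0.37. EED (0.72) and SUZ12 (0.59), subunits of Polycomb repressive complex 2, and HDAC2 (0.55), a histone deacetylase, rose most among those of at least 10 CPM. WTIP (-0.84) and AJUBA (-0.48), LIM proteins that bind SNAI1, and LOXL2 (-0.58), a lysyl oxidase that also acts on SNAI1, fell.

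Other mesenchymal genes did not rise with the TWIST factors as a group. All 35 were tested, 6 were higher, 21 lower and 8 not called in 1CT-A, beside 25.0% higher and 26.0% lower among all genes tested. The median log2 difference of the 35 was -0.32. POSTN (0, 0 and 2 counts in 1CT against 24, 36 and 28 in 1CT-A) passed the filter through 1CT-A alone, where it was higher. TNC (4, 8 and 4 against 32, 47 and 41 counts) did so too. FN1, fibronectin, was at 45204, 47281 and 40237 CPM in 1CT and 19040, 17421 and 17921 CPM in 1CT-A, a fall of 1.32 on the log2 scale (SE 0.07, edgeR adjusted p = 1.05e-08). The largest falls were those of S100A4 (-2.08), a calcium-binding protein of motile cells, the collagen gene COL5A1 (-1.95) and CTGF (-1.68), a matrix protein. COL3A1, collagen III, rose by 2.37 (47.8 ± 17.8 against 253 ± 15.0 CPM), the matrix protease MMP2 by 2.06 (6.38 ± 3.47 against 27.3 ± 1.26 CPM) and decorin, DCN, by 0.30.

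**Figure D5:**
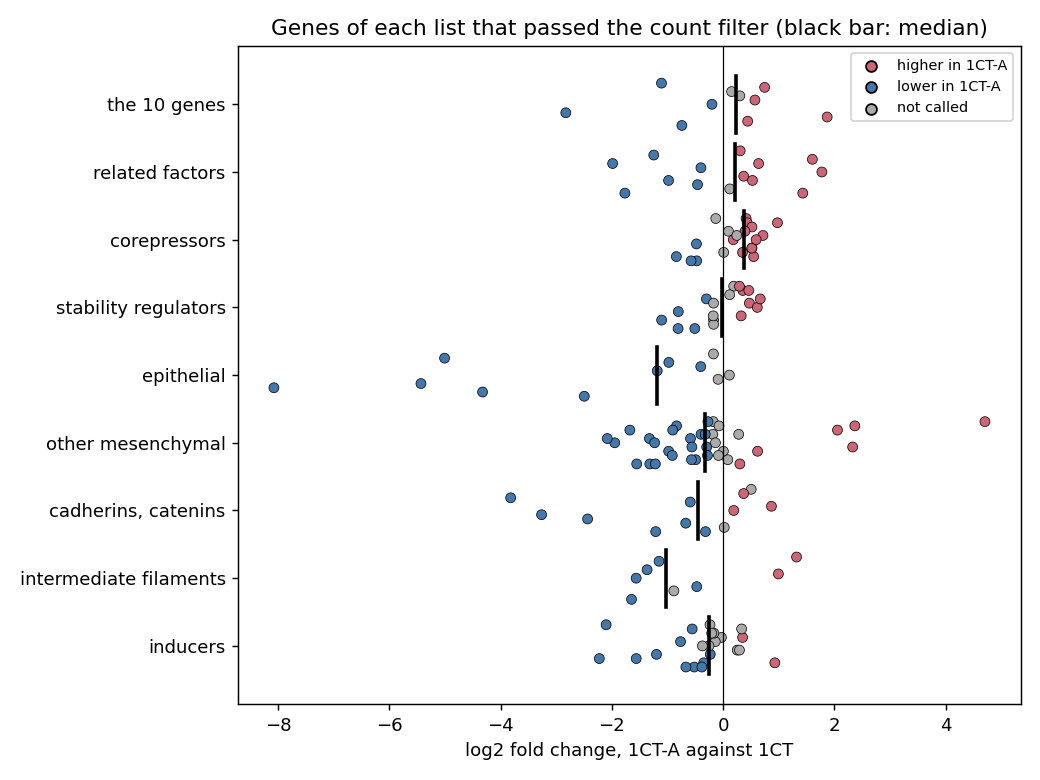
Log2 difference between 1CT-A and 1CT of the tested genes of each list, with 1 point per gene and a bar at the median. The 35 mesenchymal genes have a median of -0.32 and the 20 corepressors one of 0.37, beside -0.01 for all genes tested, and the lowest epithelial point is KRT19, whose fitted value depends on a count of 0 in 1CT-A.

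The plot of the lists shows the genes that passed the filter, and the mesenchymal genes, which all passed, spread to both sides. In the epithelial, cadherin and filament lists some genes passed through 1CT alone, where they were higher. The medians of these lists are thus no measure of the whole lists and are not compared. PRRX1 among the 10 genes and SMAD7 among the inducers also passed through 1CT, where they were higher. Of 28 listed genes, which are other cadherins, catenins and vinculin, 12 were tested. Of these 12, 3 were higher and 7 lower, beside 25.0% higher and 26.0% lower among all genes tested. The 12 had a median of -0.45. With at least 10 counts asked of every library, 7 instead of 10 of them were called. CDH4, retinal cadherin, rose by 0.87 (22.6 against 42.3 CPM), CTNNAL1 by 0.37 and CTNNB1, β-catenin itself, by 0.19 (428.9 against 503.2 CPM, edgeR adjusted p = 0.0212). CTNNA1, α-catenin, fell by 0.67 (175 against 113 CPM) and vinculin, VCL, fell by 0.32. Under a mean of 10 CPM, JUP (14.5 against 1.55 CPM) and CTNND2 (4.46 against 0.312 CPM) were lower by more. They were picked after their values were seen and passed the filter through 1CT alone. Of 16 other intermediate filament and linker genes 8 were tested, with 2 higher and 5 lower, beside the same shares of all genes. The 8 had a median of -1.02. The nuclear lamins LMNB1 (1.32) and LMNB2 (0.99) rose, and DST (-1.37) and PLEC (-1.15), linkers that hold vimentin filaments, and LMNA (-0.47) fell.

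Antisense genes and copies bear on how the counts of the 10 genes can be read, since no source states whether counting used the strand. VIM-AS1 had 5, 5 and 4 counts in 1CT and 7, 20 and 11 in 1CT-A, ZEB1-AS1 3, 3 and 4 against 14, 13 and 13, and ZEB2-AS1 4, 3 and 1 against 9, 1 and 5. These are few beside VIM, ZEB1 and ZEB2. SNAI3-AS1 fell by 1.01 and TWISTNB, named as a neighbour of TWIST1, rose by 0.48 (65.3 against 93.4 CPM), while DNM3OS, a noncoding RNA known as a target of TWIST1, was at 9.63 against 9.60 CPM with an edgeR adjusted p of 0.815. The 20 protein-coding neighbours of the 10 genes in RefSeq's order were picked after the values were seen. Of them, 19 were in the tables and 10 were tested. Of these 10, 5 were higher and 1 lower, beside 25.0% higher and 26.0% lower among all genes tested. DSC3 beside CDH2, at 0.161 against 1.23 CPM and at most 15 counts, passed the filter through 1CT-A alone, where it was higher. The neighbours of TWIST1, HDAC9 and FERD3L, had at most 4 and 0 counts, and GORAB beside PRRX1 was at 4.01 against 4.46 CPM (edgeR adjusted p = 0.707).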

How the data were processed

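The authors deposited 1 table of raw counts per library, whole numbers per gene symbol without normalization. The submitters' processing notes name Bowtie2, edgeR and hg19, with no role or version. The counting tool, annotation and use of strand are not given in the sources used here. The labels describe QuantSeq libraries, while the methods of the paper speak of RNA sequencing by a microarray service and of a cDNA microarray. Repeated symbols were summed. Columns without a sample numbered 0.

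Libraries of 1CT and 1CT-A (3 each) were compared with edgeR 4.0.16 in R 4.3.3 (TMM, filterByExpr with a minimum count of 10, quasi-likelihood test, no block), with Benjamini-Hochberg adjustment over 12514 genes and calls at an adjusted p under 0.05. The script was tested on simulated data. CPM use the total of each table. Exact permutation tests were two-sided and cannot go below 0.1.

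The 10 genes and the gene lists were chosen with earlier results of these data known. Named from each list are up to 3 largest rises and 3 largest falls among called genes whose mean over the 6 libraries reached 10 CPM, besides CDH1, EPCAM, FN1, APC and the antisense and copy genes. Others are said to be picked later. Alternatives were DESeq2 1.42.0 and its size factors within edgeR, limma-voom (limma 3.58.1), scaling to library size alone, dropping the filter, asking 10 counts of each library, the replicate block, each library left out, and thinned 1CT-A libraries. Promoter letters come from RefSeq (GRCh38.p14), and no coordinates of the count tables (hg19) are given. Single cell and other experiments were not analysed here.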

Additional observations from a re-analysis of the deposited data

How the results depend on the processing

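SNAI1, SNAI2, TWIST1, TWIST2, ZEB1, PRRX1 and CDH11 kept their direction and their call in all 97 fits over the 14 alternatives (highest adjusted p 0.0213). PRRX1 had 13 of them, since it had under 10 counts in 1 library. As it passed the filter through 1CT, where it was higher, its call is a description. The VIM call was lost in 8 of 14 alternatives, among them library size only (adjusted p = 0.0905) and DESeq2 (adjusted p = 0.0602). CDH2 passed the threshold in 2, without the second 1CT library and without a filter (adjusted p = 0.00187). The number of the 10 genes called was 7 to 8, and of all genes 5364 to 7238. Library size only gave 3441 genes higher and 3014 lower. With at least 10 counts in every library 3 epithelial genes were called instead of 8, and without a filter 13. Without a filter, 11 intermediate filament genes were called instead of 7. Same-numbered libraries deviated together in 1 pair and not in the others (correlations of -0.16, 0.22 and -0.14 for numbers 1, 2 and 3 over 8224 genes), so the numbers were not taken as pairs. With the replicate block 8 of the 10 genes and 6091 of all genes were called. The block changed no call of the 10 genes. Depth limits SNAI1 and PRRX1 most, with 9 to 80 counts a library.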

Other observations

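Of 20 listed genes that control the stability of the SNAIL and TWIST proteins, 18 were tested, 7 were higher and 5 lower in 1CT-A and 6 were not called, beside 25.0% higher and 26.0% lower among all genes tested, with a median log2 difference of -0.03. The kinase PAK1 (25.2 against 41.1 CPM), the ubiquitin ligase subunit FBXO45 (23.3 against 36.6 CPM) and the phosphatase CTDSPL (61.0 against 86.9 CPM) rose by 0.67, 0.61 and 0.47 on the log2 scale. MDM2 (138 against 80.6 CPM), LATS2 (35.9 against 21.1 CPM) and BTRC (25.0 against 18.0 CPM) had log2 differences of -0.81, -0.81 and -0.51 and also passed.

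Of 25 listed ligands, receptors and mediators of signals that induce the transition, 23 were tested. Of these, 2 were higher, 11 lower and 10 not called, beside the same shares of all genes, with a median of -0.25. The list also holds SMAD7, SKI, SKIL and TGIF1, known to hold TGFβ signals back, so these counts are not of inducers alone. SMAD7 (2.49 against 1.10 CPM) passed the filter through 1CT, where it was higher. TGFBR3, a coreceptor of TGFβ, rose by 0.93 (18.6 against 36.4 CPM) and SMAD4 by 0.35 (29.5 against 38.7 CPM). The ligand TGFB2 (19.6 ± 4.95 against 4.33 ± 2.20 CPM) fell by 2.23, the binding protein LTBP2 fell by 1.56 (34.0 against 11.8 CPM) and the ligand WNT5B fell by 0.67 (153 against 98.6 CPM).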
